A study of Mus musculus with 20 samples.

Results

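ER-associated degradation (ERAD) removes misfolded proteins from the endoplasmic reticulum (ER). Its 10 core genes described here are Herpud1, Sel1l, Syvn1, Derl1, Derl2, Derl3, Edem1, Edem2, Edem3 and Os9, out of 21631 protein-coding genes in the autosomes and X of the gene table. They were chosen by name, as parts of the HRD1 ubiquitin ligase complex and of the steps that feed it, and all 10 were found by symbol in the gene table. The choice was made with earlier results of these data known. The data are ATF4 CUT&Tag peak lists from C2C12, an established mouse myoblast line of wild-type genotype. Cells were given 100 nM thapsigargin for 6 h, or DMSO, the solvent, for 6 h. Thapsigargin blocks the calcium pump of the ER and so causes ER stress. In CUT&Tag an antibody, here against ATF4, guides a transposase that cuts and tags the neighbouring DNA. The series has 20 samples in 10 groups of 2, for 5 targets in both treatments, of which the 8 groups other than ATF4 were not used here.

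In ERAD, glycan-trimming EDEM proteins and lectins such as OS9 mark a misfolded glycoprotein and pass it to the adaptor SEL1L. The ligase HRD1, encoded by Syvn1, and derlins move it across the ER membrane and attach ubiquitin, after which the ATPase p97 pulls it out and the proteasome degrades it. Many ERAD genes are known to be induced in the unfolded protein response through the factors XBP1 and ATF6, which act at ER stress elements. ATF4 is the bZIP factor whose translation rises when the kinase PERK senses ER stress, and it is known to bind C/EBP-ATF composite elements as a dimer with C/EBP proteins.

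The promoters of 4 members carry the contrasts described below, and each is printed as the 250 bases before the listed transcription start, read along the gene. They are from RefSeq for GRCm38.p6, the assembly to which the files' mm10 build corresponds. Capitals mark matches to the motifs searched. Herpud1 (chr8:94386179-94386428, plus strand) had a peak in both lists and holds a C/EBP-ATF core and an ERSE-II. Syvn1 (chr19:6046326-6046575, plus strand) had a thapsigargin peak over an ERSE. Derl3 (chr10:75893148-75893397, plus strand) holds an ERSE, on the minus strand, and had no peak there. Sel1l (chr12:91849158-91849407, minus strand) holds an AP-1 match that its thapsigargin peak did not reach.
Herpud1: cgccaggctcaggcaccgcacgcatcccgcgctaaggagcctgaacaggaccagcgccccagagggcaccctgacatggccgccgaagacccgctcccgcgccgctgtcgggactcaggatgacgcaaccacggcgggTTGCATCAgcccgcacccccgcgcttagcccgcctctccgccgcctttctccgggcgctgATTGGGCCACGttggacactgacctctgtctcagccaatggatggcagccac
Syvn1: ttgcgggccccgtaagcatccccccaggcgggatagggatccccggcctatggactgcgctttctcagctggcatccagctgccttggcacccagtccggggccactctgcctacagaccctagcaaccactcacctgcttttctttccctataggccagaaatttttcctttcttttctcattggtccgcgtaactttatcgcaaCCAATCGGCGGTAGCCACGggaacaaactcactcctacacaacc
Derl3: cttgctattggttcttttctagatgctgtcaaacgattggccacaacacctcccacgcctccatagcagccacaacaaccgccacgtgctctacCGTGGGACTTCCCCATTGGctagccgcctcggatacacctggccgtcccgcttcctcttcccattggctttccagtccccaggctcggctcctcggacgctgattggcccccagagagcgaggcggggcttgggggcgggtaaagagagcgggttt
Sel1l: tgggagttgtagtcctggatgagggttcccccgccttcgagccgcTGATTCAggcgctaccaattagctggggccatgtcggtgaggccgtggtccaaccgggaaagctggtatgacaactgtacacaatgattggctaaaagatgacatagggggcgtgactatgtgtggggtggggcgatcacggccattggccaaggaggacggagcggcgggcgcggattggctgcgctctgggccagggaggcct

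The thapsigargin list held 8619 peaks with a median width of 1037 bp, and the DMSO list held 803 peaks with a median width of 856 bp. There is 1 list per condition, with no height, score or read depth, so no value below has a replicate error and no test was run. A longer list can come from more reads, a looser threshold or more occupancy, and these cannot be told apart in the files. Presence in a list is therefore set beside the share of all coding genes in the same list. The lists record occupancy and not expression, so myoblast markers could not be checked.

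After thapsigargin, 6 of the 10 genes had an ATF4 peak at a gene end, which means a peak centre within 1 kb of the gene's start or end. These were Herpud1, Sel1l, Syvn1, Derl2, Edem3 and Os9. In DMSO 1 of the 10, Herpud1, had such a peak. Over all coding genes the share was 15.1% in thapsigargin and 1.29% in DMSO. The members were thus listed more often than coding genes at large in thapsigargin, by count, and the DMSO count rests on a single gene. Because the members were chosen with earlier results of these data known, the larger share is a description and not independent evidence. The nearest value inside the 1 kb limit was Derl2, with its centre 591 bp from the gene end, and the nearest outside was Derl3 at 2688.5 bp.

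A gene end in this table may be either end of the gene, so listed transcription starts were also used where the RefSeq promoter table gave them. They were listed for 9 of the 10 members, all but Derl1. With this measure 7 of 9 members had a thapsigargin peak centred within 1 kb of a start, the same 6 and Edem1, and 1 of 9 had a DMSO peak. The share over all 17274 coding genes with a listed start was 16.4% in thapsigargin and 1.38% in DMSO. All 7 thapsigargin peaks also covered the listed start itself. How often start peaks do so over all coding genes was not counted. Of the 8 members whose promoter was CpG-rich (observed over expected CpG of at least 0.6), 7 had a thapsigargin peak at a start, where 27.8% of all genes with such a promoter had one.

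Peaks in the gene body, more than 1 kb from both ends, were found in 2 of 10 members in thapsigargin (Sel1l and Edem1) and in 0 of 10 in DMSO. The shares over all coding genes were 10.1% in thapsigargin and 1.3% in DMSO. Longer genes have more room for a body peak, and among the coding genes whose length lay in the members' range of 2544 to 66985 bp the thapsigargin share was 6.54%. Within 50 kb, 9 of 10 members had a thapsigargin peak and 2 of 10 (Herpud1 and Derl3) had a DMSO peak, against 51.1% of coding genes in thapsigargin and 8.01% in DMSO. At that distance the thapsigargin list reached more than 50% of all genes, so the 9 of 10 says less than the count at gene ends.

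**Figure D1:**
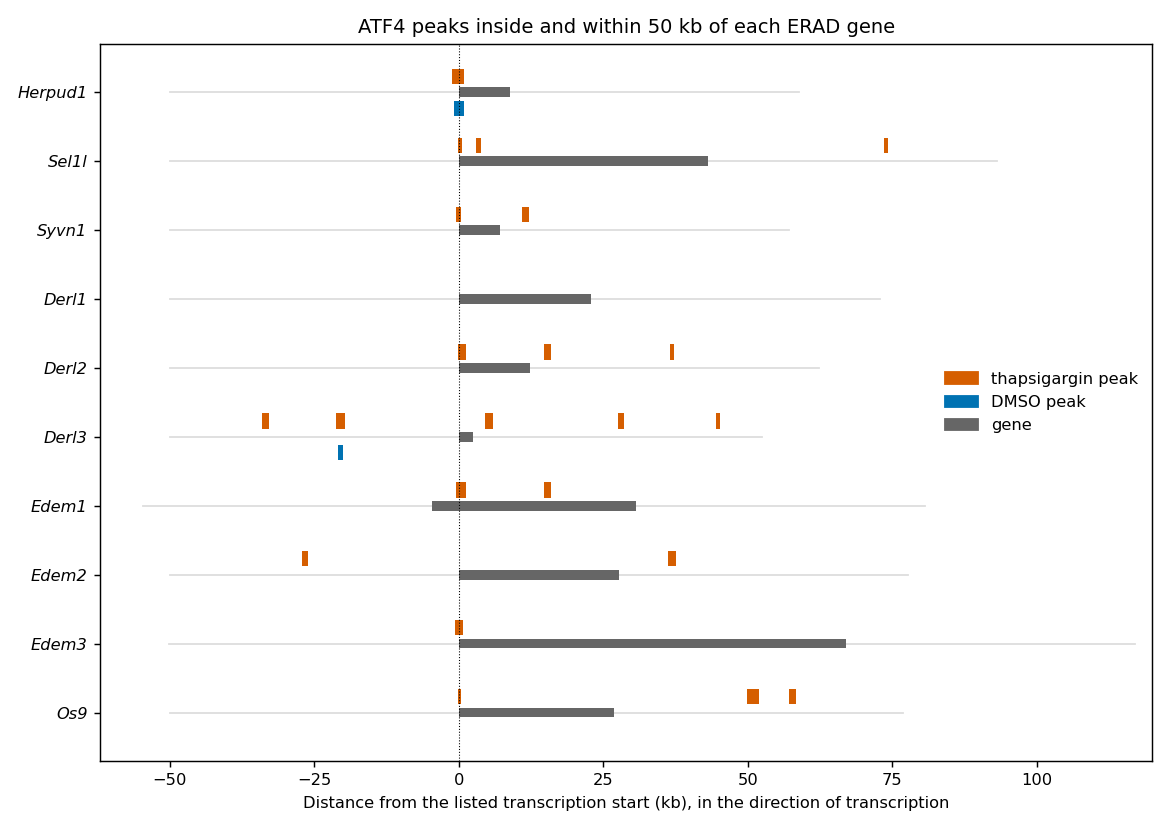
Peak positions within 50 kb of the 10 genes, in kb from the listed transcription start in the direction of transcription (horizontal axis, dotted line at 0), with 1 row per gene. Derl1 has no listed strand and is drawn from its lower coordinate. Dark grey bars are genes, light lines reach 50 kb to each side, orange boxes are thapsigargin peaks and blue boxes under the genes are DMSO peaks, drawn at their true width. Thapsigargin boxes sit on the listed start of 7 genes, which in Edem1 is 4.6 kb inside the gene bar, and DMSO boxes appear at Herpud1 and 20.4 kb from Derl3 only.

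Around the 10 genes the thapsigargin list had 22 peaks, 455 to 2073 bp wide with a median of 1202 bp. Of these, 6 lay at a member's end, 3 in a member's body and 13 outside, and 10 of the 13 lay at the end of another coding gene. The share of all thapsigargin peaks that lie at the end of a coding gene was not counted. Around the 10 genes the DMSO list had 2 peaks, of 802 and 1758 bp. Per member this is a mean of 2.2 thapsigargin peaks within 50 kb and of 0.2 DMSO peaks, beside means of 0.898 and 0.0878 over all coding genes. Both DMSO peaks lay within a thapsigargin peak over their whole length. Of all 803 DMSO peaks, 799 overlapped a thapsigargin peak, so overlap was general in the list and not particular to the members.

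The adaptors of the HRD1 complex are Herpud1 and Sel1l. Herpud1 encodes a ubiquitin-like ER membrane protein that recruits ERAD factors to HRD1 and is a known target of the unfolded protein response. Herpud1 (gene ID 64209, chr8:94386429-94395371, 8943 bp, plus strand) had a thapsigargin peak of 2073 bp at chr8:94385259-94387331 and a DMSO peak of 1758 bp at chr8:94385574-94387331. The thapsigargin peak was wider than 97.9% of its list and the DMSO peak wider than 98.6% of its own. Each was thus among the widest peaks of its list, and Herpud1 was the member with the widest peak at a gene end.

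The whole DMSO peak at Herpud1 lay within the thapsigargin peak, which was 1.18 times as wide. The right edges were at the same base, and the left edge lay 315 bp further upstream in thapsigargin. The centre was 134 bp upstream of the listed start in thapsigargin and 23.5 bp downstream of it in DMSO. A common edge was found for 14 of the 799 DMSO peaks that overlapped a thapsigargin peak (1.75%). Both peaks covered all 300 bases from 250 before the start to 50 from the start on.

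The printed Herpud1 promoter holds TTGCATCA at bases -112 to -105 from the start. Read on the other strand this is TGATGCAA, a match to TGATGNAA, the core of the C/EBP-ATF element. The match lay 25.5 bp from the thapsigargin peak's centre and 132 bp from the DMSO peak's centre, inside both peaks. An ERSE-II, which is ATTGG and CCACG with 1 base between, stood at -52 to -42, 87 bp from the thapsigargin centre and 70.5 bp from the DMSO centre. Of 21045 promoters of coding genes, Herpud1 was the 1 promoter that held both a C/EBP-ATF core and an ERSE or ERSE-II. The core was in 3.45% of these promoters, the ERSE in 30 and the ERSE-II in 11. Few pairs would thus be found even if the motifs fell independently, and the pairing was not tested.

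Sel1l encodes the adaptor that stabilises HRD1 and receives substrates from the lectins. Sel1l (gene ID 20338, chr12:91806043-91849157, 43115 bp, minus strand) had a thapsigargin peak of 573 bp at chr12:91848660-91849232, centred 211 bp downstream of its start. This peak was wider than only 7.67% of its list, so the 2 adaptors lay near opposite ends of the range of widths. A body peak of 937 bp (chr12:91845259-91846195) was centred 3.43 kb from the start end of the gene. Another thapsigargin peak, of 571 bp, lay 30.8 kb away inside Ston2. The nearest DMSO peak was 221 kb away. The Sel1l promoter holds TGATTCA, a match to the AP-1 motif TGANTCA, at -205 to -199, and the thapsigargin peak covered 41.7% of the 300 promoter bases without reaching it.

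Syvn1 encodes HRD1, the membrane ligase at the centre of the complex. Syvn1 (gene ID 74126, chr19:6046576-6053718, 7143 bp, plus strand) had a thapsigargin peak of 834 bp at chr19:6046185-6047018, wider than 28.0% of the list, and its nearest DMSO peak was 868 kb away. The thapsigargin centre lay 25.5 bp downstream of the start, the closest to a start among the members. The ERSE in its promoter, CCAAT and CCACG with 9 bases between, stood at -44 to -26 and lay inside the peak, 60.5 bp from its centre. A further thapsigargin peak of 1244 bp lay 4.43 kb past the gene, at the ends of Fau and Mrpl49.

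**Figure D2:**
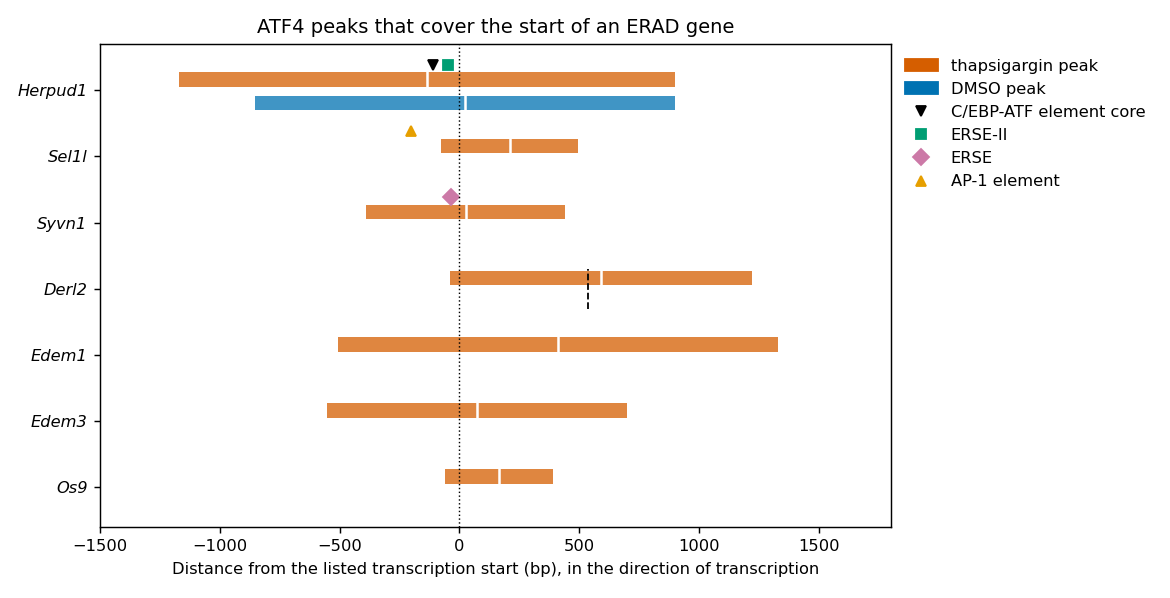
ATF4 peaks over the listed transcription starts of the 7 members where a peak covers one, in bp from the start along the gene (horizontal axis), 1 row per gene. Orange thapsigargin boxes stand above the blue DMSO box, symbols mark motif matches, a white line marks each peak centre, and the dashed line is the other listed start of Derl2. The 7 thapsigargin peaks cover the start, and Herpud1 alone has a DMSO box. Centres run from 134 bp upstream at Herpud1 to 591 bp downstream at Derl2, whose row is drawn from its start at 71019841. The Derl2 centre is 53 bp downstream of the dashed start, and the Edem1 centre is 411.5 bp downstream of its start.

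The derlins are multi-spanning membrane proteins that help form the passage for ERAD substrates. Derl2 (gene ID 116891, chr11:71007440-71019841, 12402 bp, minus strand) was the 1 derlin with a peak at a gene end, a thapsigargin peak of 1259 bp at chr11:71018621-71019879. It was wider than 70.2% of the list. Derl2 has a listed start at 71019841 and another at 71019303, and the peak centre lay 591 bp downstream of the first and 53 bp downstream of the other. The same peak was 318 bp from an end of Mis12, a neighbouring gene of a kinetochore complex, so it counts for both genes. The nearest DMSO peak to Derl2 was 199 kb away.

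Derl3 (gene ID 70377, chr10:75893398-75895941, 2544 bp, plus strand) had no peak at its ends in either list. The closest thapsigargin peak, of 1364 bp, lay 2688.5 bp past the gene, inside Smarcb1, a chromatin remodelling gene. Further upstream, a thapsigargin peak of 1460 bp at chr10:75872209-75873668 overlapped a DMSO peak of 802 bp at chr10:75872563-75873364, outside coding genes, with Mif as the nearest coding gene at 12.7 kb. These peaks lay 20.5 kb from Derl3 in thapsigargin and 20.4 kb in DMSO, with centres 25 bp apart. The thapsigargin peak was 1.82 times as wide as the DMSO peak and extended past it by 354 bp on one side and 304 bp on the other. No value here ties this site to Derl3.

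The ERSE printed for Derl3 stood at -156 to -138 on the minus strand and was 5378.5 bp from the nearest thapsigargin centre. Over all promoters of coding genes, 30 held an ERSE. Of these, 8 (26.7%) had a thapsigargin peak at the start, Syvn1 among them and Derl3 not, beside 15.6% of all promoters. Of coding genes with a CpG-rich promoter, 27.8% had such a peak. The ERSE itself holds a CpG in CCACG, and the part of CpG content in the 26.7% was not tested. Derl1 (gene ID 67819, chr15:57869502-57892418, 22917 bp) was the 1 member with no peak within 50 kb in either list. Its nearest thapsigargin peak was 142 kb away and its nearest DMSO peak 1180 kb away.

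The EDEM genes encode mannosidase-like proteins that trim glycans of misfolded proteins. Edem1 (gene ID 192193, chr6:108824045-108859356, 35312 bp, plus strand) had a thapsigargin peak of 1838 bp at chr6:108828134-108829971, wider than 95.3% of the list. The gene row begins 4.6 kb before the listed start at 108828641, so this peak counted in the body by the gene row, 5.01 kb from its end, and at the start by the promoter table, with its centre 411.5 bp downstream. A further body peak of 1263 bp (chr6:108843328-108844590) lay 15.4 kb from the gene's end. The nearest DMSO peak was 114 kb away.

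Edem3 (gene ID 66967, chr1:151755344-151822328, 66985 bp, plus strand) had a thapsigargin peak of 1256 bp at chr1:151754820-151756075, wider than 70.1% of the list. Its centre was 73.5 bp downstream of the listed start, and the nearest DMSO peak was 734 kb away. Edem2 (gene ID 108687, chr2:155701673-155729475, 27803 bp, minus strand) had no peak at either end or in its body. Its nearest thapsigargin peaks were 1389 bp wide at Trpc4ap, 9.05 kb away, and 943 bp wide at Procr, 26.6 kb away, and its nearest DMSO peak was 690 kb away. Of the 3 EDEM genes, Edem1 and Edem3 thus had a thapsigargin peak over the start, and Edem2 had none.

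Os9 encodes the lectin that reads trimmed glycans and hands substrates to SEL1L. Os9 (gene ID 216440, chr10:127094259-127121160, 26902 bp, minus strand) had a thapsigargin peak of 455 bp at chr10:127120768-127121222, wider than only 2.94% of the list and the narrowest of the 22 around the members. Its centre was 165 bp downstream of the start. Os9 lies near other genes with peaks, and a thapsigargin peak of 1963 bp at Tspan31 was 24.0 kb away and one of 1166 bp at Cdk4 30.8 kb away. The nearest DMSO peak, 169 kb away, was the 1885 bp peak at Ddit3, which encodes the stress factor CHOP.

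**Figure D3:**
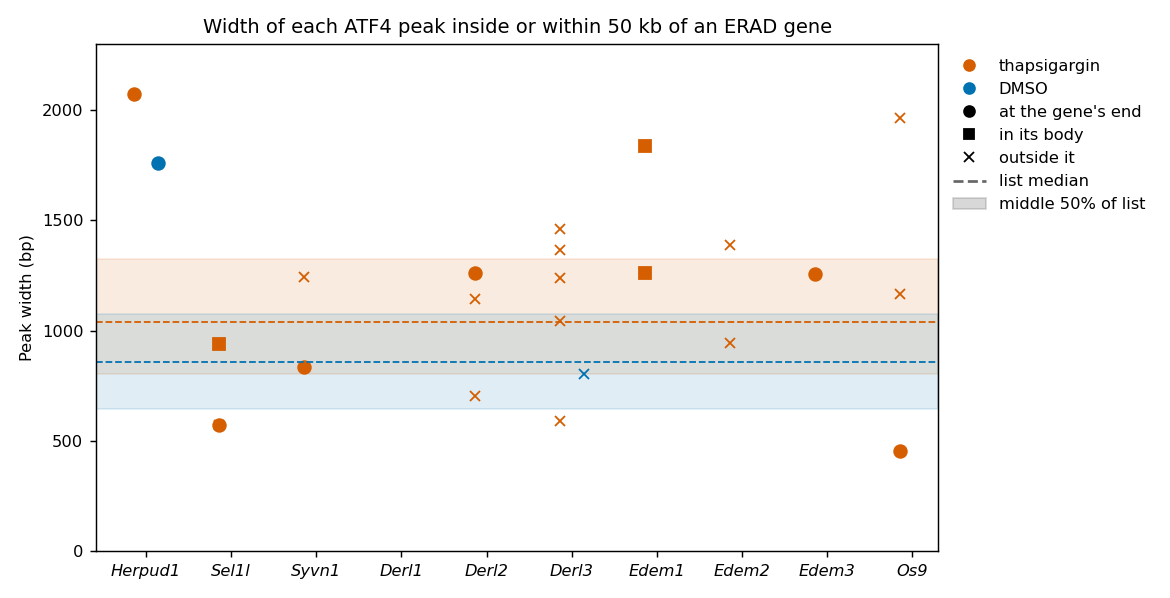
Widths of the peaks around the members in bp (vertical axis) by member (horizontal axis), with thapsigargin points left of DMSO points. Dots are peaks at the gene's end, squares those in its body and crosses those outside it. Dashed lines and bands give the median and the middle 50% of all peaks in each list, 1037 bp for thapsigargin and 856 bp for DMSO. The member peaks at gene ends run from 455 bp at Os9 to 2073 bp at Herpud1 in thapsigargin, and the DMSO peak at Herpud1, 1758 bp wide, stands above its list's band.

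Across the 6 thapsigargin peaks at gene ends, widths ran from 455 to 2073 bp with a median of 1045 bp, beside 1037 bp for the whole list. Their centres lay 25.5 to 591 bp from the gene end. Apart from Herpud1, the centre of each of the 7 peaks over a listed start was downstream of that start. The share of start peaks centred downstream over all coding genes was not counted, so this placement may be general. Peak width depends on read depth and on the caller as well as on the site, and the share of each was not tested. Of all 3267 coding genes with a thapsigargin peak at an end, 33.9% shared that peak with an end of another coding gene, and 1 of the 6 members, Derl2, did so.

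The members' promoters were rich in CpG, as were those of genes with a peak in general. The members' 10 promoters came from 9 members, with 2 from Derl2 and none from Derl1. Their median CpG ratio was 0.759, beside 0.574 in all promoters of coding genes. It was 0.818 in promoters with a thapsigargin peak and 0.473 in those without one. The median GC content was 62.2% in the members, 56.7% in all promoters, 62.3% in those with a thapsigargin peak and 55.3% in those without. Among the members the GC content was highest in Edem1 (76.0%) and lowest in Edem2 (47.3%), the member with a listed start whose CpG ratio, 0.599, was also the lowest. GC and CpG content thus moved with the presence of a peak over all genes, and their part in the members' count was not tested.

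The 7 motifs were searched on both strands of the 300-base promoters, and the members held 6 matches in 5 genes. Of the 6, 3 lay inside a thapsigargin peak (both in Herpud1 and the one in Syvn1) and 2 inside a DMSO peak (both in Herpud1). Over all promoters, the share with a match to any of the 7 motifs and the share of matches inside a peak were not counted. The C/EBP-ATF core TGATGNAA was found in Herpud1 only among the members, and in 3.45% of all promoters. It was in 3.71% of promoters with a thapsigargin peak and in 18.6% of those with a DMSO peak, 52 of 279. The ERSE-II was in Herpud1 only among the members and in 0.0523% of all promoters, 11 in number, of which 7 (63.6%) had a thapsigargin peak. The ERSE was in Syvn1 and Derl3 and in 0.143% of all promoters. The share of promoters with a thapsigargin peak was 33.1% for those holding the cAMP response element and 27.5% for the XBP1-type core, which no member holds, beside 26.7% for the ERSE. It was 16.8% for the C/EBP-ATF core, 11.4% for the C/EBP motif, 9.39% for the AP-1 motif and 15.6% over all promoters. The cAMP response element, the XBP1-type core, the ERSE and the ERSE-II each hold a CpG. Of genes with a CpG-rich promoter, 27.8% had a thapsigargin peak at a start, and the part of CpG content in these shares was not tested.

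The C/EBP motif TTGCNNAA matched in Edem2 alone among the members, as TTGCCCAA at bases 21 to 28 from the start, and in 10.3% of all promoters. The AP-1 motif TGANTCA matched in Sel1l alone and in 7.04% of all promoters. The cAMP response element TGACGTCA, in 2.26% of promoters, and the XBP1-type core TGACGTG, in 2.19%, share 6 letters and were in no member's promoter. Derl2, Edem1, Edem3 and Os9, each with a thapsigargin peak over the start, held none of the 7 motifs in this window. No single motif was in more than 10.3% of all promoters, and the share holding none of the 7 was not counted. A promoter without a match may thus be the usual case. Peaks reach beyond the window, and sequence outside it was not searched.

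The members were then set beside 3 further lists: 68 other ERAD genes, 24 ER chaperones and disulfide isomerases, and 32 proteasome subunits. In thapsigargin, 31 of 68 other ERAD genes (45.6%), 14 of 24 chaperones (58.3%) and 8 of 32 proteasome subunits had a peak at a gene end, beside 6 of 10 members and 15.1% of all coding genes. In DMSO the counts were 2 of 68 (2.94%), 1 of 24 (4.17%, Txndc12) and 1 of 32 (3.12%, Psmb2), beside 1 of 10 members and 1.29% of all. By listed starts, the thapsigargin shares were 41.1% of other ERAD genes, 61.9% of chaperones and 26.9% of proteasome subunits, beside 77.8% of members and 16.4% of all genes. Differences between these lists were not tested, and all of the lists were chosen with earlier results of these data known.

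**Figure D4:**
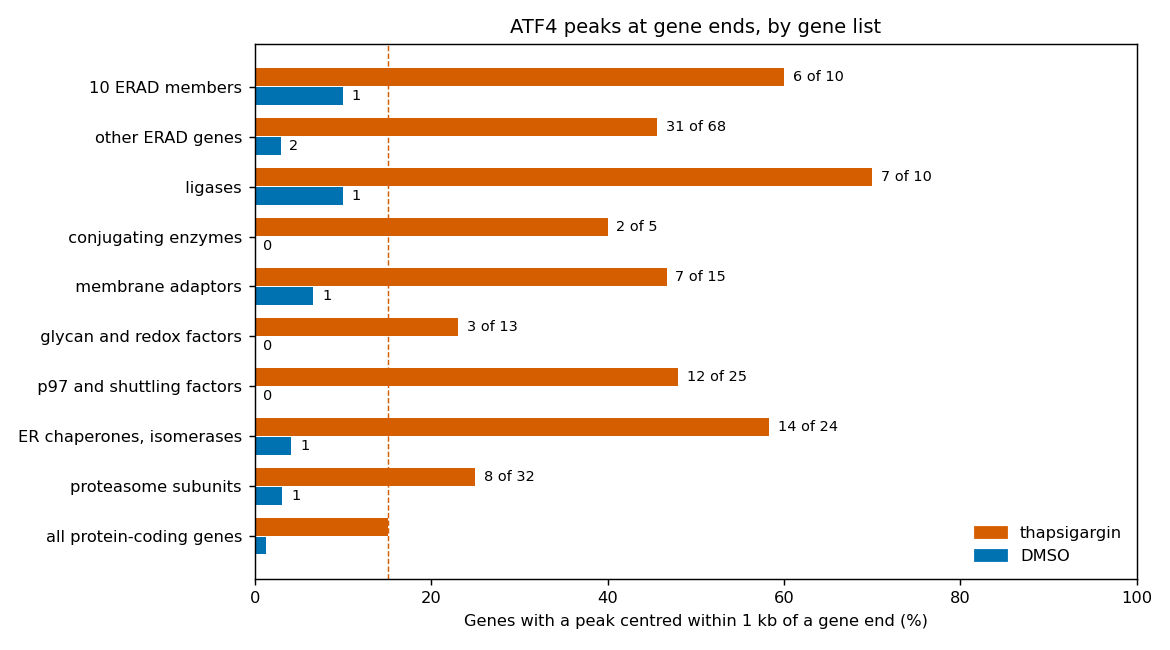
Share of genes with an ATF4 peak at a gene end, in percent (horizontal axis, from 0), for the members, the other ERAD genes by role, ER chaperones, proteasome subunits and all coding genes, with thapsigargin bars above DMSO bars and the number of genes beside each bar of a list. The dashed line is the thapsigargin share of all coding genes. The thapsigargin share is 60.0% for members and 15.1% for all coding genes, and the DMSO share is 10.0%, which is Herpud1 alone, and 1.29%.

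Among other ERAD genes, 7 of 10 ligases had a thapsigargin peak at an end and 1 a DMSO peak. The shares of all coding genes, to be set beside each role, were 15.1% in thapsigargin and 1.29% in DMSO. At 1.29%, a DMSO count of 0 in a role of this size says little. Rnf5, a membrane ligase, had a thapsigargin peak of 1460 bp, shared with Agpat1, and Ube4a, a chain-elongating ligase, had one of 1093 bp. Marchf6, a ligase of the sterol pathway, had a thapsigargin peak of 983 bp that held the whole of its DMSO peak of 728 bp. Of 5 conjugating enzymes, 2 had a thapsigargin peak and 0 a DMSO peak. These were Ube2k, with a peak of 1768 bp shared with Smim14, and Ube2g1, with a peak of 1498 bp.

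Of 15 membrane adaptors, 7 had a thapsigargin peak at an end and 1 a DMSO peak, beside 15.1% and 1.29% of all coding genes. Herpud2, the paralogue of Herpud1, had a thapsigargin peak of 2214 bp, wider than 98.8% of the list, and no DMSO peak at its ends. Aup1, which recruits a conjugating enzyme, had a thapsigargin peak of 1877 bp shared with Htra2. Rhbdd1, an ER rhomboid protease, had a thapsigargin peak of 1170 bp and a DMSO peak of 883 bp, of which 94.5% was shared. Herpud1, Marchf6 and Rhbdd1 were thus the ERAD genes, of the 10 members and 68 others, with a peak at an end in DMSO. Each also had one in thapsigargin, where 799 of all 803 DMSO peaks overlapped a thapsigargin peak.

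Of 13 glycan and redox factors, 3 (23.1%) had a thapsigargin peak at an end and 0 a DMSO peak. Over all coding genes the shares were 15.1% and 1.29%, so the 23.1% is not far from the share at large. The 3 were Man1b1, the ER mannosidase, with a thapsigargin peak of 1150 bp, Dnajc10, a disulfide reductase, with 1029 bp, and Ngly1. Ngly1, which removes glycans from extracted proteins, had a peak of 589 bp, shared with Oxsm. Of 25 p97 and shuttling factors, 12 (48.0%) had a thapsigargin peak at an end and 0 a DMSO peak. Among them were Bag6, with a peak of 1572 bp, and Get4, with one of 1490 bp, which act together on exposed membrane segments. Vcp, which encodes p97 itself, had a thapsigargin peak of 1302 bp.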

How the data were processed

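The authors deposited 1 ATF4 peak list per condition as chromosome, start and end, with no score, height or p-value. The submitters' processing notes name Trim Galore 0.6.10, Bowtie2, MACS2 2.2.7.1 and mm10, without roles or settings. What threshold or control was used and how the 2 replicates entered a list is not given in the sources used here, so depth is unknown and no replicate error can be had. Nothing in the labels says whether replicates were separate cultures.

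The members, the other lists and the choice of named genes were made with earlier results of these data known. Peaks were joined to RefSeq gene positions (GRCm38.p6, without strand or exons) by peak centre, within 1 kb of an end or 50 kb of a gene. Listed starts, strands and 300-base promoters came from the RefSeq promoter table. Named were all members, other ERAD genes with a DMSO peak at an end and up to 3 per role by thapsigargin width, genes sharing a member's peak, genes at its distal peaks, and Ddit3. Some genes that this rule names are left out of the text. Vcp was named after its value was seen. Peaks overlapped when they shared at least 1 bp, and coordinates count from 1. No test was run. The counting was tested on simulated data. Python 3.11.15, numpy 2.4.6, pandas 2.3.3 and matplotlib 3.10.9 were used.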

Additional observations from a re-analysis of the deposited data

How the results depend on the processing

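Of 32 counts recomputed with other windows, start or overlap rules, merged peaks or the wider peaks of each list, 26 stayed within 1.5 times the reported count. Some of these had little or no room to move. The DMSO body count of 0 was recounted only under stricter rules, and each DMSO count at member ends was Herpud1 alone. With only peaks at or above the median width of their list, 3 of 10 members (Herpud1, Derl2 and Edem3) had a thapsigargin peak at an end, beside 7.56% of coding genes, and 1 (Edem1) had one in the body. Within 10 kb, and likewise within 20 kb, 1 member (Herpud1) had a DMSO peak, in place of 2. The shares of all coding genes within 10 or 20 kb, and with a wider peak in the body, were not counted. These member counts therefore have no share to be read against. With a window of 500 bp, 0 of the 68 other ERAD genes had a DMSO peak at an end, beside 0.962% of coding genes, a share at which a list of this size says little. With centres within 100 bp, 1 overlapping pair of peaks was left, the one upstream of Derl3. The thapsigargin count at member ends was 5 at 500 bp, without Derl2, beside 12.5% of coding genes, and 7 with Derl3 at 3 kb, beside 18.6%, and at 5 kb, beside 21.1%. No paired analysis was possible because the 2 lists carry no replicate numbers. Depth and threshold limit every absence: a gene without a listed peak may still hold ATF4 below the caller's threshold.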
